A study of Mus musculus with 4 samples.

Results

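The Wnt genes of newborn mouse brain were examined as 42 mRNAs of 20651 RefSeq genes on a one-color expression array. They were chosen by gene symbol: 19 Wnt ligands, 10 Frizzled receptors (Fzd), the coreceptors Lrp5 and Lrp6, 9 secreted inhibitors (Sfrp1, Sfrp2, Sfrp4, Sfrp5, Dkk1 to Dkk4 and Wif1) and the target genes Axin2 and Lef1. The array carried 51 probes for them, each as 1 spot, and where a gene had several, the brightest on average stood for it.

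Pregnant C57BL/6J mice received 25 μL of vehicle (Sham) or 100 μg of titanium dioxide nanoparticles in 25 μL (TiO2-H) through the trachea, and whole brains of the offspring were taken at postnatal day 1. The dose follows the methods of the study, which give the suspension as 4 μg/μL, while the labels write 4 μg/L. The labels give the day of administration as gestational day 10.5 in the protocol and as day 14 in the sample names. Each of the 4 groups, male and female offspring of Sham and of TiO2-H dams, was 1 pool of RNA from 2 offspring per dam, of 5 Sham dams or 6 TiO2-H dams, on 1 array. A group therefore has no replicate. Both Sham arrays lay in one row of the slide and both TiO2-H arrays in the other, so that exposure, litters and row cannot be told apart.

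Wnt ligands are secreted, lipid-modified proteins that bind a Frizzled receptor together with Lrp5 or Lrp6. In the canonical branch this stabilizes beta-catenin, which enters the nucleus, joins TCF and LEF factors such as Lef1 and turns on targets, among them Axin2, a scaffold that feeds back on the pathway. Sfrp proteins and Wif1 bind the ligands, and several Dkk proteins bind Lrp5 and Lrp6. In the developing brain the pathway is known for patterning the midbrain and the cortical hem, for forming the hippocampus, and for guiding blood vessels into neural tissue.

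Promoter sequence is shown for 4 members, because Wnt4 was brighter on both TiO2-H arrays with each of its probes and Lef1, Fzd5 and Wnt10b were bright on the same array. The bases before the transcription start are from RefSeq (GRCm38.p6), 250 for each, at chr4:137277385-137277634 (Wnt4, plus strand), chr3:131110047-131110296 (Lef1, plus strand, the first of its 4 windows), chr1:64737751-64738000 (Fzd5, minus strand) and chr15:98778151-98778400 (Wnt10b, minus strand), written 5′ to 3′ with each CpG dinucleotide, the site of DNA methylation in mammals, in capitals. The annotated Wnt10b gene reaches to chr15:98778206, so some bases of its window lie inside the gene.
Wnt4: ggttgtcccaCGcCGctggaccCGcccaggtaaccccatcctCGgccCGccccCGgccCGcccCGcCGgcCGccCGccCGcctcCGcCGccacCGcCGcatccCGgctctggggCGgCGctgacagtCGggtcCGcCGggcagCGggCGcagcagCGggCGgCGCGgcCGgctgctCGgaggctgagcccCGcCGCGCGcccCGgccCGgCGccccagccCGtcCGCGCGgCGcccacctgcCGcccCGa
Lef1: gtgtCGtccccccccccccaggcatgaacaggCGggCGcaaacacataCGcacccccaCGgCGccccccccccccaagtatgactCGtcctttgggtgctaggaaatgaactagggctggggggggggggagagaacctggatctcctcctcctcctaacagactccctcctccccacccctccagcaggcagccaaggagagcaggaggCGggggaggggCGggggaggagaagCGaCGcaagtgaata
Fzd5: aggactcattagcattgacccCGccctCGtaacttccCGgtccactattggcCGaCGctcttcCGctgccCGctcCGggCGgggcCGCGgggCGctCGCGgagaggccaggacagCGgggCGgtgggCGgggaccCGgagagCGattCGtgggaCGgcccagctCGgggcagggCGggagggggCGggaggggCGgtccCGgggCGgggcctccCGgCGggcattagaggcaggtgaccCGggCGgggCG
Wnt10b: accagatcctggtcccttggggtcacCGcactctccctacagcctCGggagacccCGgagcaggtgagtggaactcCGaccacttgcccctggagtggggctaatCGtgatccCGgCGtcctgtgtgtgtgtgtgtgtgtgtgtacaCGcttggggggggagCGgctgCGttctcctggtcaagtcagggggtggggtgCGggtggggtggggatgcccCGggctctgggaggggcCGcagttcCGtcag

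The Wnt4 window held 44 CpGs, that of Fzd5 32, that of Wnt10b 14 and that of Lef1 11. Of the 42 members, 28 had an entry in the promoter table, with 34 windows in all. These windows held a median of 20.5 CpGs and 66.6% G and C, against 6.0 and 52.4% over all 32851 promoter windows. The GC box GGGCGG, which itself contains a CpG, was found on either strand in 25 of the 34 windows (73.5%) and in 32.7% of all windows. The letters CTTTGAT or CTTTGAA, which TCF and LEF factors are known to bind, were found on either strand in 3 of the 34 (8.82%), those of Wnt5b, Wnt11 and Dkk1, and in 7.48% of all windows. These are descriptions of sequence, and DNA methylation was not analysed here.

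Values below are scaled signals, the background-subtracted brightness of a spot brought to a common 75th percentile of 835 on each array, and log2 fold changes are TiO2-H over Sham. Between 56.2% and 61.2% of spots were well above background on the 4 arrays, and among probes spotted 10 times the median SD between spots of 1 array was 0.064 to 0.067 on the log2 scale where the probe was above background and 0.20 to 0.37 where it was not. All 6 detected probes of sex-linked genes went against the sex labels of the TiO2-H arrays. Xist, for example, had a scaled signal of 18.4 on Sham male, 289.5 on Sham female, 334 on the array labelled TiO2-H male and 5.14 on the array labelled TiO2-H female. The Y-linked RNA Eif2s3y had 3628 on Sham male, 440.6 on Sham female, where it was well above background too, 6.17 on the array labelled TiO2-H male and 4168 on the array labelled TiO2-H female. The sex of a TiO2-H array is for this reason given as its label only.

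Of the 42 members, 34 were well above background on all 4 arrays. Wnt2, Wnt2b, Wnt3a, Wnt8a, Dkk1 and Dkk4 stayed below that level throughout, and no fold change is given for them. Wnt10b was above background on 1 array and Wnt8b on 3. This left 36 members for the test over all 4 arrays.

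Within the labelled sexes, members past 1.5-fold or 0.67-fold were counted, with no test, since each side is 1 array. On the arrays labelled male, none of 35 members passed in either direction, where 2.06% of all genes were 1.5-fold higher or more and 1.82% were at or under 0.67-fold. Log2 fold changes of the members there lay between -0.33 (Dkk2) and 0.19 (Wnt6), and their median was -0.06. In the labelled female comparison, 4 of 36 members were at or above 1.5-fold, Wnt10b, Fzd5, Wnt10a and Lef1, where 1.59% of all genes were. Wnt10b was among the members compared only through the array on which it was high, so its place in this count is not independent of the filter. No member was at or below 0.67-fold, where 1.97% of all genes were, and the median of the members was -0.03. Between the 2 Sham arrays, which differ in labelled sex and not in exposure, none of 35 members was at or above 1.5-fold in females, where 1.84% of all genes were, and 1 (Wnt8b) was at or below 0.67-fold, where 1.75% were. Of the members measured on each side, the log2 fold change was within the error given by the scanner software (0.20 to 0.33) for 33 of 35 in the labelled male comparison and 25 of 34 in the labelled female comparison.

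**Figure D1:**
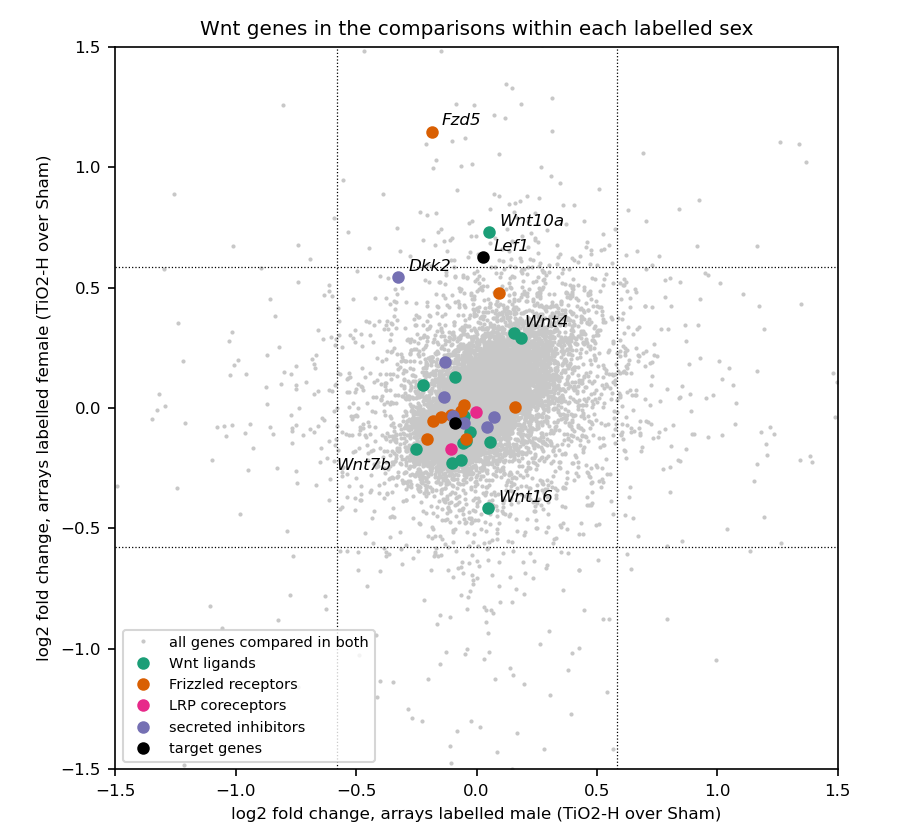
Log2 fold change of TiO2-H over Sham on the arrays labelled male (x axis) and female (y axis), both axes shown up to 1.5 in either direction, with all genes compared in both as grey points, the Wnt genes colored by role, and dotted lines at 1.5-fold and 0.67-fold. Fzd5, Wnt10a and Lef1 lie above the upper line on the y axis, and no Wnt gene lies beyond a line on the x axis. Wnt10b is not shown, since it was too dim on both arrays labelled male.

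Wnt10b, a canonical ligand known for holding back fat cell formation (NM_011718), had scaled signals of 8.78, 9.44 and 12.0 on Sham male, Sham female and the array labelled TiO2-H male, none of them well above background. On the array labelled TiO2-H female it had 78.0, which was. It was thus at least 2.34-fold higher there than on Sham female, taking the lowest signal well above background on Sham female, 33.3, as the limit.

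Fzd5, a receptor known for roles in eye and vessel development (NM_022721), had 54.9 on Sham male, 44.4 on Sham female, 48.3 on the array labelled TiO2-H male and 98.3 on the array labelled TiO2-H female. The last stood apart from the other 3, with a log2 fold change of 1.15 (scanner error 0.31) over Sham female, against -0.19 in the labelled male comparison. A second Fzd5 probe, between 22.1 and 28.9, stayed too dim to be well above background on every array.

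Wnt10a, a canonical ligand known for teeth and hair (NM_009518), had 60.6, 46.4, 62.9 and 77.1 in the same order of arrays. Both TiO2-H values were the higher ones, but the array labelled TiO2-H male exceeded Sham male only slightly. The log2 fold change was 0.73 (scanner error 0.31) in the labelled female comparison and 0.05 in the labelled male one, and between the 2 Sham arrays the log2 ratio of female over male was -0.38.

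Lef1, the nuclear partner of beta-catenin and itself a target (NM_010703), had 409 on Sham male, 392 on Sham female, 417 on the array labelled TiO2-H male and 605 on the array labelled TiO2-H female. One array was high and the other 3 were close together. The log2 fold change was 0.63 (scanner error 0.21) in the labelled female comparison and 0.03 in the labelled male one. Without the array labelled TiO2-H female, the log2 difference of Lef1 between exposures was 0.06.

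Axin2, the other target (NM_015732), had 400.1, 417, 377 and 399. Its log2 fold changes were -0.09 in the labelled male and -0.06 in the labelled female comparison, within the scanner error of 0.21. The array on which Lef1 was high was not high for Axin2.

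**Figure D2:**
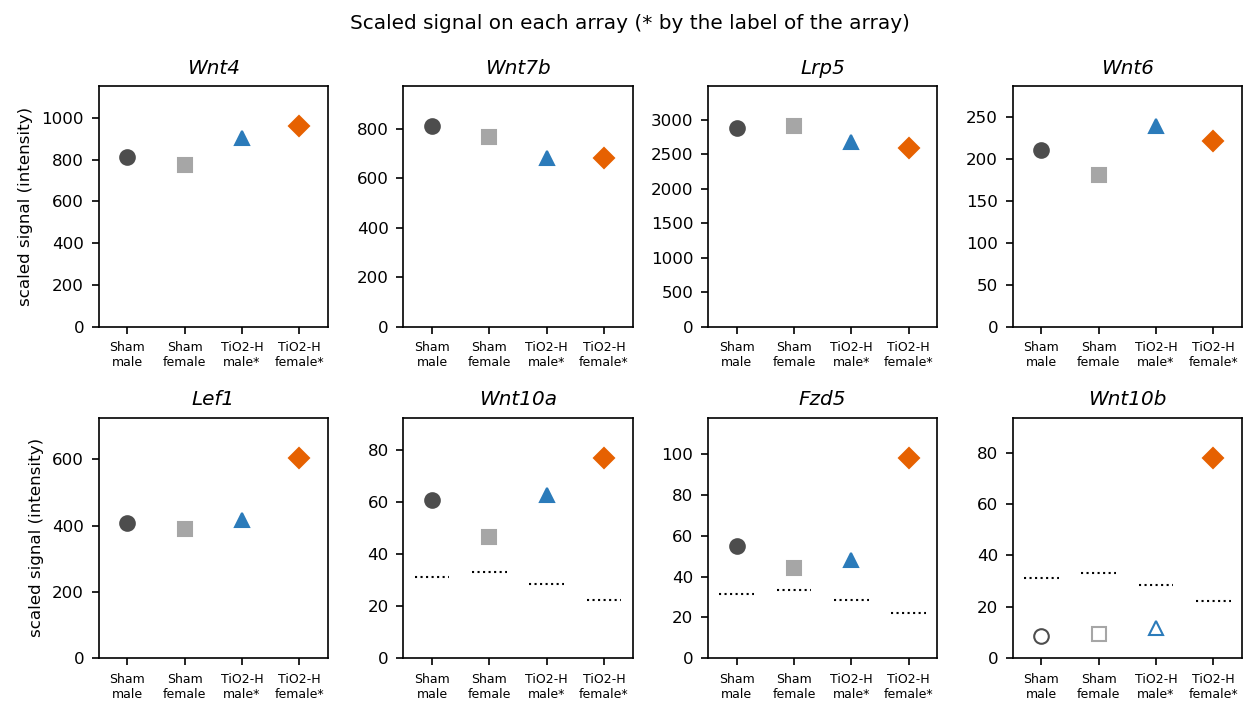
Scaled signal (intensity, axis from 0) of 8 Wnt genes on each array, with open symbols where the signal was not well above background and dotted lines at the lowest signal well above background on that array (last 3 panels). Wnt4 and Wnt6 are higher and Wnt7b and Lrp5 lower on both TiO2-H arrays, while Lef1, Fzd5 and Wnt10b stand out on the array labelled TiO2-H female.

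If the TiO2-H arrays are paired with the Sham arrays across the sex labels, following the sex-linked RNAs, the array labelled TiO2-H female is set against Sham male. Then 2 members were at or above 1.5-fold, Fzd5 with a log2 fold change of 0.84 and Wnt10b with 1.31 as a bound, and Lef1 (0.56) and Wnt10a (0.35) were under the threshold. Of all genes, 265 of 15782 were at or above 1.5-fold in that pairing. With the background corrected by normexp from the median signals instead, Lef1 (0.60) and Wnt10b (0.61) passed on the arrays labelled female, and Fzd5 (0.58) and Wnt10a (0.41) did not, with 96 of 15770 genes passing in all.

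Exposure was next compared over all 4 arrays, 2 TiO2-H against 2 Sham. With limma and Benjamini-Hochberg adjustment over 16150 genes, 0 members and 0 genes in all had an adjusted p under 0.05 (lowest 0.257). Before adjustment, at a p under 0.05, 1 of 36 members was higher (Wnt4), where 10.4% of all genes were, and 2 were lower (Wnt7b and Lrp5), where 7.0% of all genes were. Both TiO2-H values lay above both Sham values for 6 members (16.7%), where 28.5% of all genes did, and below them for 14 (38.9%), where 27.1% of all genes did. The 6 were Wnt4, Wnt6, Wnt10a, Fzd6, Fzd10 and Lef1. The 14 were Wnt1, Wnt3, Wnt5a, Wnt7b, Wnt9a, Wnt11, Fzd1, Fzd3, Fzd4, Fzd8, Fzd9, Lrp5, Sfrp4 and Axin2.

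The median log2 difference, TiO2-H minus Sham, was -0.04 over the 36 members and 0.00 over all genes tested. This split depends on the scaling. Without scaling, the median of all genes moved to 0.12 and that of the members to 0.07, and 11 members lay above and 1 (Wnt7b) below, with 9912 and 1023 of all 16150 genes. Leaving out 1 array loosens the criterion, and the count of members above was 10 without Sham male and 11 without the array labelled TiO2-H male, where 6509 of 16013 and 6592 of 15917 genes lay above. In whole brain RNA, fewer cells of a type and less RNA per cell cannot be told apart.

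**Figure D3:**
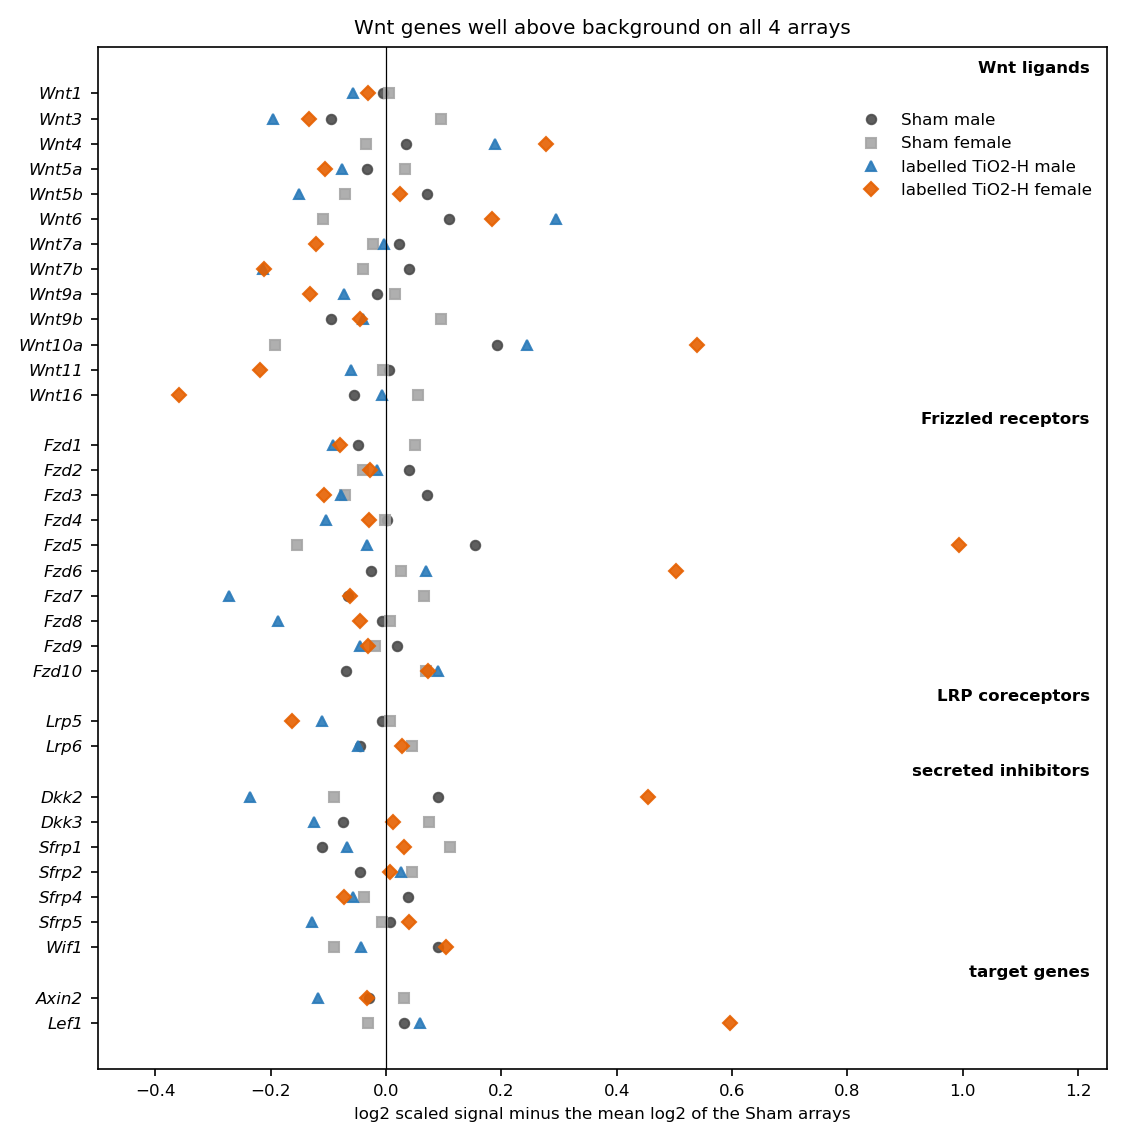
Log2 scaled signal of the 34 Wnt genes well above background on all 4 arrays, relative to the mean of the Sham arrays (vertical line), by role, with 1 symbol per array. Most values lie within 0.2 of the line, and the array labelled TiO2-H female lies far to the right for Fzd5, Lef1, Wnt10a, Fzd6 and Dkk2.

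Among the Wnt ligands, 15 of 19 were tested, with a median log2 difference of -0.06. On both TiO2-H arrays 3 (20.0%) lay above and 6 (40.0%) below, where 28.5% and 27.1% of all genes did. Wnt4, a ligand that often acts outside the beta-catenin branch (NM_009523), had scaled signals of 811 on Sham male, 774 on Sham female, 903 on the array labelled TiO2-H male and 959.8 on the array labelled TiO2-H female. Both TiO2-H arrays were above both Sham arrays, with a log2 difference of 0.23 ± 0.05 (SE, limma, unadjusted p = 0.0173, adjusted p = 0.257). A second Wnt4 probe had 233, 239.7, 260.5 and 282 in the same order, a log2 difference of 0.20.

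Wnt7b, a ligand of neurons and neural progenitors known for vessel growth in the brain (NM_001163634), had 810.2, 767, 679.9 and 681. Both TiO2-H arrays were below both Sham arrays and nearly equal to each other. The log2 difference was -0.21 ± 0.05 (SE, limma, unadjusted p = 0.013, adjusted p = 0.257).

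Wnt7a (NM_009527), its close relative with a like role in vessels, had 903, 874, 886 and 817. Here the groups overlapped, and the log2 difference was -0.06 ± 0.06 (SE).

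Wnt6 (NM_009526) had 209.9, 180.5, 239 and 221, with both TiO2-H arrays above and a log2 difference of 0.24 ± 0.10 (SE, limma, adjusted p = 0.326). The 2 Sham arrays themselves differed by -0.22 on the log2 scale (female minus male). Wnt10a had a log2 difference of 0.39 ± 0.19 (SE, limma, adjusted p = 0.365), which was 0.20 without Sham female, 0.24 without the array labelled TiO2-H female and 0.58 without Sham male.

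Wnt5a, the best known ligand of the non-canonical branch (NM_009524), had 880.1, 920.3, 854 and 836, a log2 difference of -0.09 ± 0.04 (SE, limma, adjusted p = 0.364). Wnt9a (NM_139298) had 360.1, 368, 346 and 332, and Wnt11 (NM_009519), another non-canonical ligand, had 96.3, 95.7, 92.0 and 82.5. Their log2 differences were -0.10 ± 0.04 and -0.14 ± 0.07 (SE), with adjusted p of 0.326 and 0.375 from limma. All 3 lay below on both TiO2-H arrays, and Wnt11 was lowest on the array labelled TiO2-H female.

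Wnt1, the ligand of the midbrain and hindbrain boundary (NM_021279), had 1073, 1080.0, 1035 and 1054, a log2 difference of -0.04 ± 0.03 (SE). Wnt8b, a ligand of the cortical hem (NM_011720), had 62.2 on Sham male, 36.0 on Sham female (too dim to be well above background), 58.6 on the array labelled TiO2-H male and 39.4 on the array labelled TiO2-H female. It was higher on the arrays labelled male at either exposure, but the sex-linked RNAs went against the labels of the TiO2-H arrays. This order is therefore not one by sex. The remaining tested ligands, Wnt3, Wnt5b, Wnt9b, Wnt16 and Wnt10b, had log2 differences between -0.18 (Wnt16) and 0.54 (Wnt10b, from signals set to the lowest well above background), with limma adjusted p of 0.381 or more.

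All 10 Frizzled receptors were above background on all 4 arrays. Fzd6 and Fzd10 (20.0%) lay above and Fzd1, Fzd3, Fzd4, Fzd8 and Fzd9 (50.0%) below on both TiO2-H arrays, where 28.5% and 27.1% of all genes did. The median log2 difference was -0.05. Fzd9, a receptor known in hippocampal development (NM_010246), had 2769, 2698, 2649 and 2674, a log2 difference of -0.04 ± 0.04 (SE). Fzd1 (NM_021457) had 1777, 1903, 1726 and 1740.0, with -0.09 ± 0.05 (SE).

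Fzd6, a receptor of planar cell polarity (NM_008056), had 73.3, 76.0, 78.3 and 105.7. The array labelled TiO2-H female was high and the array labelled TiO2-H male close to Sham, with log2 fold changes of 0.48 (labelled female) and 0.10 (labelled male). Fzd6 lay under the 1.5-fold threshold and, like Dkk2 below, is named here after its values were seen. The log2 differences of the 10 receptors lay between -0.17 (Fzd7) and 0.48 (Fzd5), and the lowest limma adjusted p among them was 0.404.

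Of the coreceptors, Lrp5 (NM_008513), also known for bone mass and retinal vessels, had 2880.0 on Sham male, 2905 on Sham female, 2677 on the array labelled TiO2-H male and 2583 on the array labelled TiO2-H female. Both TiO2-H arrays were below both Sham arrays, with a log2 difference of -0.14 ± 0.04 (SE, limma, unadjusted p = 0.0314, adjusted p = 0.261). Over the alternatives the log2 difference of Lrp5 lay between -0.163 and -0.023, and without scaling Lrp5 did not lie below on both TiO2-H arrays. Lrp6 (NM_008514), the coreceptor with the broader role in the embryo, had 2183, 2322, 2176 and 2295, overlapping, with -0.01 ± 0.06 (SE).

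Of the 9 secreted inhibitors 7 were tested. None lay above and 1, Sfrp4, lay below on both TiO2-H arrays, where 28.5% and 27.1% of all genes did. The log2 differences of the 7 lay between -0.07 and 0.11 with a median of -0.02. Dkk3, a divergent Dickkopf protein (NM_015814), had 5378, 5957, 5190.0 and 5709, which alternated with the sex label of the array. The sex-linked RNAs went against that label on the TiO2-H arrays. Sfrp2 (NM_009144) had 719.6, 766, 756 and 746, and Sfrp1 (NM_013834), a ligand-binding inhibitor of the embryonic cortex, had 627, 731, 647 and 692. In each of these 3 the groups overlapped and the log2 difference was smaller than its SE.

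Dkk2 (NM_020265) had 59.3, 52.3, 47.3 and 76.4, below Sham on the array labelled TiO2-H male and above it on the array labelled TiO2-H female. Its log2 fold change was 0.54 (scanner error 0.31) in the labelled female comparison and -0.33 (scanner error 0.33) in the labelled male one. Wnt10a, Fzd5, Dkk2, Fzd6 and Wnt10b had their highest signal on the array labelled TiO2-H female, at scaled signals from 76.4 to 105.7. Other members of like brightness did not: Wnt11 (82.5) and Wnt16 (66.7) had their lowest signal there, and Wnt8b had 39.4.

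Other genes of the pathway, from 7 lists that hold no member, were 67 genes, of which 65 were on the array and 59 tested. Of these, 20 (33.9%) lay above and 18 (30.5%) below on both TiO2-H arrays, where 28.5% and 27.1% of all genes did. None had a limma adjusted p under 0.05. At an unadjusted limma p under 0.05, 7 were higher and 4 lower, where 10.4% and 7.0% of all genes were. No gene of these lists passed a fold threshold on the arrays labelled female, where 1.59% of all genes passed upward and 1.97% downward. On the arrays labelled male 1 of 59 did, where 2.06% of all genes passed upward and 1.82% downward. It was Draxin (NM_027426), a secreted inhibitor and axon guidance protein named for this, with 50.2 on Sham male and 79.4, 79.5 and 83.6 on the other 3 arrays, so that Sham male alone was low.

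The 4 tested genes among the other inhibitors, Frzb, Sostdc1, Draxin and Apcdd1, all lay above on both TiO2-H arrays, where 28.5% of all genes did. Their median log2 difference was 0.26. Draxin lay above only by 79.5 on the array labelled TiO2-H male against 79.4 on Sham female. Frzb, with a log2 difference of 0.28 ± 0.14 (SE), differed by -0.34 between the 2 Sham arrays (log2, female minus male). Apcdd1, a membrane-bound inhibitor of ligand and receptor (NM_133237), had 531, 539, 646 and 619, a log2 difference of 0.24 ± 0.04 (SE, limma, unadjusted p = 0.00698, adjusted p = 0.257). Kremen1, a receptor for Dkk proteins (NM_032396), had 592, 581, 468 and 499, with -0.28 ± 0.05 (SE, limma, unadjusted p = 0.0074). Ptk7, a coreceptor of planar cell polarity (NM_175168), had 2756, 2804, 2472 and 2441, with -0.18 ± 0.04 (SE, limma, unadjusted p = 0.0109). The latter 2 were lower on both TiO2-H arrays than on both Sham arrays.

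Dvl2, which carries the signal from Frizzled into the cell (NM_007888), had 947, 943, 835 and 829.7, with a log2 difference of -0.18 ± 0.03 (SE, limma, unadjusted p = 0.00848). In its list of 15 cytoplasmic genes, 4 (26.7%) lay above and 8 (53.3%) below, where 28.5% and 27.1% of all genes did. Ctnnb1 itself, the gene of beta-catenin, had 12840, 13190, 12820 and 13180.0, and no difference was detectable (log2 difference -0.00 ± 0.04, SE). Celsr2, a planar cell polarity cadherin (NM_017392), had 659.7, 698, 794 and 790.2, with 0.22 ± 0.05 (SE, limma, unadjusted p = 0.0116). In its list of 9 genes, 5 (55.6%) lay above and 1 (11.1%) below, against the same shares of all genes. The remaining lists were less skewed. The shares above and below were 16.7% and 33.3% for ligand release and modification, and 28.6% and 14.3% for R-spondins and receptor turnover. They were 14.3% and 28.6% for other receptors and coreceptors, and 27.3% and 36.4% for nuclear factors and targets. Each of these named genes had a limma adjusted p of 0.257, except Ctnnb1 with 0.99, and Ctnnb1 was named after its values were seen.

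**Figure D4:**
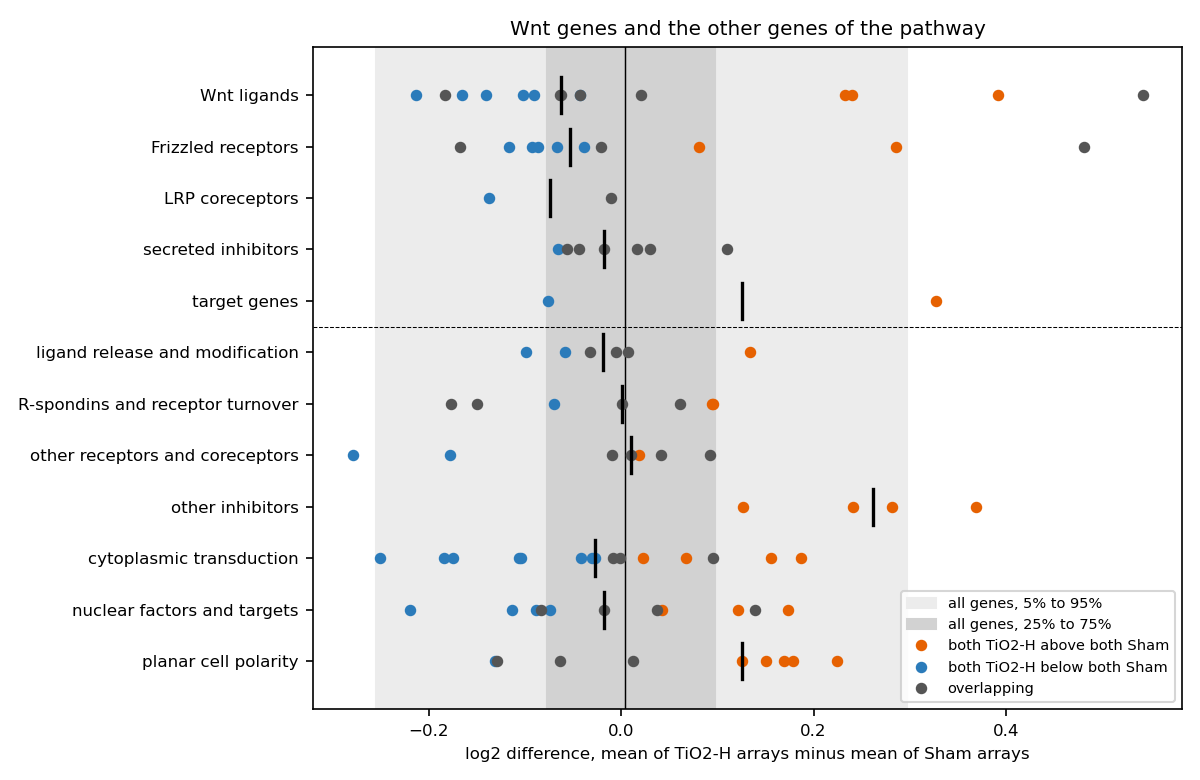
Log2 difference, mean of the TiO2-H arrays minus mean of the Sham arrays (x axis), of each tested gene by role (upper 5 rows) and by list of other pathway genes (lower 7 rows), colored by whether the groups overlapped, with short lines at the medians and grey bands for 25% to 75% and 5% to 95% of all genes. Most Wnt genes lie within the outer band (-0.26 to 0.30), and the other inhibitors lie to the right with a median of 0.26.

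Markers of the tissue and of cells that can come with it were read on the same arrays. All 8 neuron markers, all 7 of radial glia and astrocytes and all 5 of the oligodendrocyte lineage were above background on every array. On both TiO2-H arrays, 28.5% of all genes lay above and 27.1% below. Above, as Wnt4 and Wnt6 were, lay 5 of 7 markers of radial glia and astrocytes, 3 of 5 of the oligodendrocyte lineage, 5 of 6 of microglia and 5 of 7 of meninges. Of endothelium 2 of 6 and of neurons 2 of 8 did, near the share of all genes. Below lay Pax6, C1qa, Kdr and Tubb3, 1 each of radial glia and astrocytes, microglia, endothelium and neurons. Of skeletal muscle and skin markers none lay above, and 1 of each, Ckm and Krt1, lay below. Ckm was well above background on Sham female alone, at 57.5. Elsewhere it was too dim, and the limit of each array stood in for its signal. These limits were 31.4 on Sham male and 28.4 and 22.4 on the arrays labelled TiO2-H male and female. The place of Ckm below Sham male thus came from the limits and was not measured. The meninges markers had summed scaled signals of 22000 and 21620 on the Sham arrays and 22860 and 23550 on the TiO2-H arrays. Of 7 choroid plexus markers 4 lay above and 1, Ttr, below. Of 5 erythroid markers tested 4 lay below, with summed signals of 107500 and 104200 on the Sham arrays and 89690 and 89540 on the TiO2-H arrays, as Wnt7b and Lrp5 did. Of 5 pituitary markers, Prl, Pou1f1 and Cga were not well above background on any array. Gh was above background on the array labelled TiO2-H male alone, at 290.1. Pomc was above background on all 4 arrays. It had 589.6 on Sham male, 599.2 on Sham female, 921 on the array labelled TiO2-H male and 566.2 on the array labelled TiO2-H female. The part of these cells in the values of the Wnt genes was not tested.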

How the data were processed

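Gene expression was measured in 4 pooled RNA samples of newborn mouse brain, 1 one-color array each. The authors deposited intensity values, as scanner files and as 1 table of the same processed signals, made with Agilent Feature Extraction 10.10.1.1, which subtracts local background and does not scale between arrays. The mean signal of a spot was not used here.

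The log2 processed signal was scaled to each array's 75th percentile. Outlier spots were left out (none of the members). RefSeq accessions were named through a gene table of GRCm38.p6 (94.3% of 22765 matched). A dim signal was raised to the lowest signal above background on its array unless its own was higher, and its fold change read as a bound. The thresholds 1.5 and 0.67 follow the methods of the study. TiO2-H was tested against Sham with limma 3.58.1 in R 4.3.3 over all genes above background on at least 1 array, without sex as a term. With 2 pools per exposure the p-values rest on little replication. The experiment had 5 Sham and 6 TiO2-H dams in all, so the 2 pools of an exposure came from the same dams. They are not independent, and the p-values do not measure the spread between litters. On simulated data with 200 of 14633 genes changed 3-fold, limma recovered 100% and called 0.035% of the others. The simulated noise was independent between arrays, with 1 SD for all genes, and only genes above background were used. Smaller changes, such as those of the members, were not simulated, so it does not show whether limma could detect them here. Python 3.11.15 and pandas 2.3.3 were used.

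The members, lists, rules and alternatives were chosen with earlier results of these data known. Named were the 2 brightest members of each role, those past a fold threshold, the 8 members and the 5 other pathway genes with the smallest limma p, other pathway genes past a threshold in both sexes, and, by name, members not above background. Wnt7a, Wnt8b, Wnt16, Fzd6, Sfrp1, Dkk2, Draxin and Ctnnb1 were named in addition, after their values were seen.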

Additional observations from a re-analysis of the deposited data

How the results depend on the processing

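Of 265 values of the log2 differences of 16 named genes under the alternatives, 261 kept their direction. Much of this was fixed in advance, so the count does not measure robustness. The deposited table holds the same signals, and a sex term leaves the differences unchanged. Leaving out 1 array cannot reverse a gene whose TiO2-H values both lie on one side of both Sham values. With all 4 arrays, 0 members and 0 genes in all had a limma adjusted p under 0.05 under any alternative. The sign reversed for Wnt9a (0.013) and Wnt5a (0.024) with no scaling, for Wnt11 (0.053) with normexp on median signals, and for Fzd5 (-0.032) without the array labelled TiO2-H female, where leaving out each array gave -0.032 to 0.994. The cause was not tested.

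Members at or above 1.5-fold on the arrays labelled female were 2 with normexp (96 of 15770 genes in all), 2 at a 2-fold threshold (95 of 15769) and 1 (Wnt8b, as a bound) with the TiO2-H arrays crossed over the sex labels (305 of 15546). Crossed, 2 were at or above 1.5-fold (265 of 15782) and 1 (Wnt8b) at or below 0.67-fold (307 of 15782) against Sham male. Without scaling, 11 members lay above and 1 below on both TiO2-H arrays. Leaving out each array in turn gave 6 to 11 above, with a median log2 difference over the members of -0.058 to -0.030. That median was 0.071 with no scaling, -0.048 with quantile normalization, -0.053 with normexp, -0.050 with genes above background on every array and -0.063 with no filter.

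The deposited table, no floor, the mean of a gene's probes, outlier spots kept, every identifier counted, 1 floor for all arrays (chosen after the data were seen) and sex as a term, as labelled or crossed, moved no count by over 1.5 times. The labels give no replicate numbers, but sex pairs the arrays: with it as a term, the lowest limma adjusted p over all genes was 0.39 as labelled and 0.415 crossed. Leaving out each array moved Wnt10a between 0.20 and 0.58, and Wnt10b between 0.50 and 1.27 where it could be tested. Signal over background limits Wnt8b, Wnt10a, Wnt10b, Wnt11, Wnt16, Fzd5 and Dkk2, whose scaled signals were under 100 on every array, where the lowest signals well above background were 22.4 to 33.3.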

Other observations

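Some members had a second probe. Those of Wnt4 and Axin2 gave log2 differences of the same sign as the first, 0.20 and 0.23 for Wnt4 and -0.13 and -0.08 for Axin2. Those of Fzd2, Fzd7 and Lrp6 gave the opposite sign, 0.06 against -0.02 for Fzd2, 0.09 against -0.17 for Fzd7 and 0.04 against -0.01 for Lrp6. The second probe of Wnt8b was well above background on Sham male alone, at 37.1. The second probes of Fzd5, Wnt1 and Wnt16 were not well above background on any array.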
